A study of Mus musculus with 74 samples.

Results

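The genes described here are the kallikreins (Klk), the serine proteases named Prss and Tmprss, and the mast cell proteases (Mcpt), all relatives of trypsin. They were chosen by symbol alone: every row of the 6 deposited count tables whose symbol starts with Klk, Prss, Tmprss or Mcpt and a digit, except 2 genes that the rule leaves out. This gave 69 of the 17853 genes listed in any table, and 55 of the 69 are listed in all 6 tables.

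These enzymes cut proteins after selected residues with a catalytic triad of histidine, aspartate and serine, and most are made as inactive precursors that another protease cleaves. Each is usually abundant in a few tissues: tissue kallikrein and its rodent Klk1b relatives in the salivary glands, Klk5, Klk7 and Klk14 in the outer skin, trypsin in the pancreas, Mcpt1 and Mcpt4 in mast cells. Tmprss proteins stay anchored in the membrane of epithelial cells. Medullary thymic epithelial cells transcribe many genes that otherwise belong to single peripheral tissues, so that developing T cells meet those self antigens. The nuclear protein AIRE, encoded by Aire, is needed for a large share of them. In people, loss of AIRE causes an autoimmune syndrome that is usually recessive, and single changes in its PHD zinc fingers can act dominantly.

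The study compared mice with different Aire alleles by bulk MARS-seq, which counts tags at the 3' end of transcripts, in sorted mTEChi from mice aged 4 to 7 weeks. These cells are the subset of the thymic medullary epithelium that carries much MHC class II. Of 74 libraries, 73 fell into 21 groups. On C57BL/6 (B6) the groups were Aire+/+ (3 libraries), Aire+/- (5) and Aire-/- (4) of a null line. Further B6 lines had +/+ (3), +/Y86C (3) and Y86C/Y86C (3), +/+ (3), +/C313X (2) and C313X/C313X (3), and +/+ (3), +/C442G (5) and C442G/C442G (6). On NOD they were +/+ (3), +/V303M (3) and V303M/V303M (3), Aire+/- (3) and Aire-/- (3) of a null line, and +/C313Y (4) with 5 Aire+/+ libraries. A last NOD group, -/C313Y (3), carries 1 null and 1 C313Y allele and comes with 3 Aire+/+ libraries of the same title form. The NOD null line has no wild type of its own, so Aire-/- was set against Aire+/-. The labels give no Cre, transgene, treatment or sex and no animal identity, so p-values measure only the spread between these libraries, which may be technical. Each mutant group was set against the controls of its own table.

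Library totals ran from 1016619 to 7225403 counts. Aire averaged 1685 to 4293 CPM (counts scaled to a common library total) across the groups, and Psmb11, 1 of 6 cortical epithelial markers read, did not exceed 4.13 CPM. Summed, these 6 markers averaged 1242 to 6918 CPM over the groups. Aire tags were still counted in the B6 Aire-/- libraries (3162 CPM on average, 2125 in wild type), so these 3' tags do not check the null labels. Libraries 392 (NOD Aire+/-) and 52 (a NOD wild type set beside +/C313Y) each held both Xist and Y-linked transcripts above 25 CPM. In the C313X line all 3 wild types held mainly Y-linked transcripts and all 3 homozygotes mainly Xist, so sex and genotype are separated there only through the 2 heterozygotes. In these bulk libraries, fewer cells of a type and less RNA per cell cannot be told apart.

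All 69 genes have a position in the mm10 (GRCm38) annotation, and 56 of them lie in 11 clusters whose neighbouring genes start within 200000 bases of each other. The largest is the kallikrein locus at chr7:43690418-44229618, with 25 genes on the plus strand. Their order is Klk14, Klk13, Klk12, Klk11, Klk10, Klk9, Klk8, Klk7, Klk6, Klk5, Klk4, the pseudogene Klk1b7-ps, Klk1b8, Klk1b1, Klk1b9, Klk1b11, Klk1b27, Klk1b21, Klk1b22, Klk1b16, Klk1b24, Klk1b3, Klk1b4, Klk1b5 and Klk1. A cluster at chr17:25298394-25322684 holds Prss34, Prss28 and Prss29, one at chr17:23833347-24045954 holds Prss33, Prss41, Prss32, Prss30, Prss22 and Prss27, and 5 Mcpt genes share chr14:56017971-56085273.

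Promoters were found in the RefSeq promoter table (build GRCm38.p6, 250 bases before to 50 bases after the start) for 55 of the 69 genes. The sequences below run 5' to 3' on the gene's strand from 60 bases before to 20 bases after the annotated start. They are shown because neighbouring genes of the kallikrein locus differ in them, and because their genes carry the results that follow. On the plus strand lie Klk1 at chr7:44225300-44225379, Klk1b9 at chr7:43976001-43976080, Klk1b11 at chr7:43995817-43995896, Klk1b27 at chr7:44052230-44052309, Klk5 at chr7:43842209-43842288, Klk7 at chr7:43811234-43811313 and Prss29 at chr17:25318594-25318673. Tmprss2 at chr16:97611176-97611255 is on the minus strand. Capitals mark a match to TATAAA or TTTAAA between 40 and 16 bases before the start. Klk1b27 also holds tttaaa, left unmarked and uncounted because it runs past the window's end nearer the annotated start.
Klk1: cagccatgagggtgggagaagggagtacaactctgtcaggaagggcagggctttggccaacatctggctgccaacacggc
Klk1b9: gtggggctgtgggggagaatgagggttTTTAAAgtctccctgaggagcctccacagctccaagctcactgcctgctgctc
Klk1b11: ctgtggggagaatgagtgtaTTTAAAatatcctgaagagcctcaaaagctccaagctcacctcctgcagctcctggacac
Klk1b27: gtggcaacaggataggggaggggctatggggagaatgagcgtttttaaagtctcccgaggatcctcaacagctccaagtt
Klk5: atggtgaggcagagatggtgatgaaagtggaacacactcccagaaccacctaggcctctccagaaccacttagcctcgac
Klk7: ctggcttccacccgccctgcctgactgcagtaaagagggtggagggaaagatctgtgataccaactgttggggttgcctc
Prss29: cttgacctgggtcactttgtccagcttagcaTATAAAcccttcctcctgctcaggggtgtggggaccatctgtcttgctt
Tmprss2: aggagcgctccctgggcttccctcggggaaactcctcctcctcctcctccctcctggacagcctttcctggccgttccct

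The TATA box letters TATAAA, searched on the gene's own strand from 40 to 16 bases before the start, stood in 6 of the 55 promoters (10.9%): Mcpt1, Mcpt4, Prss1, Prss28, Prss29 and Prss3. The same window held them in 600 of 27025 promoters of all genes (2.22%). The variant TTTAAA, which is its own reverse complement and was looked at only after the sequences had been seen, stood there in 7 of the 55 (12.7%). These were Klk1b1, Klk1b9, Klk1b11, Klk1b16, Klk1b22, Klk1b24 and Tmprss15, and over all genes it was in 378 promoters (1.4%). Anywhere in the listed 300 bases, TTTAAA was found in 12 of the 13 Klk1 and Klk1b promoters (92.3%) and in 13.2% of all promoters. The 11 promoters of Klk4 to Klk14 held neither motif in the core window. The 13 Klk1 and Klk1b promoters were 43% to 90.3% identical in 78 pairs, with a median of 74.7%, which is one sign of how close these paralogs are. Such closeness matters for counting. Of the 50-base words in the last 300 transcript bases, 34.3% for Klk1b21, 27.5% for Klk1b24, 25.1% for Klk1b22, 19.1% for Klk1b3, 62.5% for Prss1, 78.1% for Prss3 and 58.6% for Mcpt9 also occur in another gene. For these 7 genes reads could be split between copies and their values are uncertain, while 54 of the 69 share no such word.

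Across the family, libraries of the 4 B6 homozygotes, +/C442G, NOD Aire-/-, +/C313Y and -/C313Y held fewer tags than their controls. The sums of B6 Aire+/-, +/Y86C, +/C313X and both V303M mutant groups overlapped those of their wild types. The CPM of all listed members summed to 1544 ± 50.2 (SD, n = 3) in the B6 wild types of the null line, 1472 ± 97.8 (n = 5) in Aire+/- and 822 ± 71.3 (n = 4) in Aire-/-. The sum was 2381 ± 28.4 in the Y86C line's wild types, 2273 ± 335 in +/Y86C and 602 ± 61.5 in Y86C/Y86C (n = 3 each). It was 2326 ± 304 in the wild types and 693 ± 79.2 in the homozygotes of the C313X line (n = 3 each), and 2261 ± 308 in +/C313X (n = 2). In the C442G line it stepped down with each mutant allele, from 2820 ± 237 (n = 3) through 2048 ± 159 (n = 5) to 882 ± 64.2 (n = 6). The NOD null line held 1596 ± 74.2 in heterozygotes and 854 ± 13.5 in homozygotes (n = 3 each). Wild types and +/C313Y libraries held 1368 ± 141 (n = 5) and 789 ± 38.3 (n = 4). For the wild types of the other series and -/C313Y the sums were 1478 ± 18.3 and 799 ± 26 (n = 3 each). The V303M line held 1803 ± 57 in wild types, 1698 ± 64.8 in heterozygotes and 1524 ± 319.6 in homozygotes (n = 3 each).

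**Figure D1:**
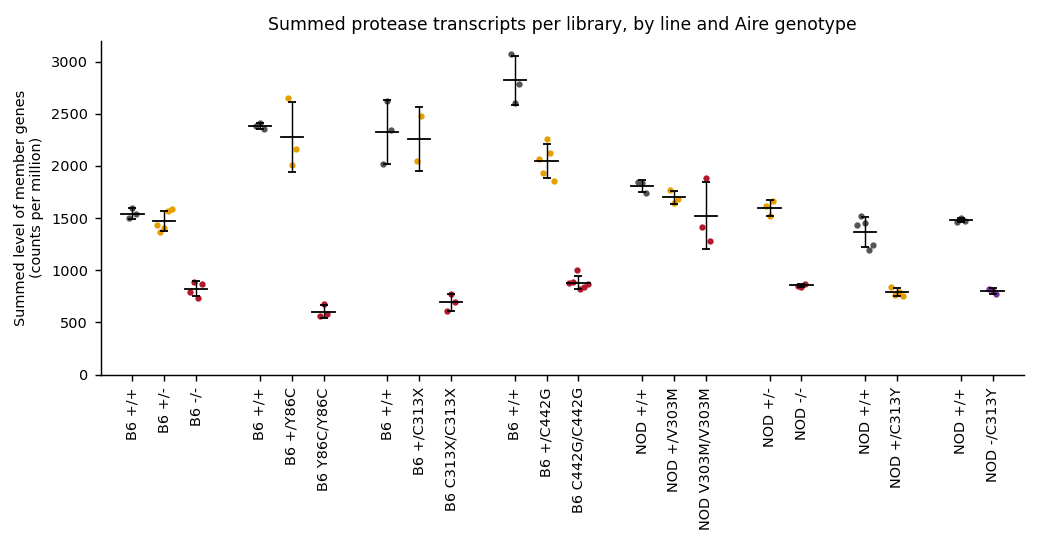
Summed CPM of the listed kallikrein, Prss, Tmprss and Mcpt genes (vertical axis, from 0) in each library (dots), by line and Aire genotype, with group means and SD (bars). The libraries of the 4 B6 homozygous mutants and of NOD Aire-/-, +/C313Y and -/C313Y lie below their own controls, while the 3 V303M groups lie near each other.

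A gene was called lower or higher when its adjusted p (Benjamini-Hochberg over all genes tested in the table) in edgeR's quasi-likelihood test was below 0.05. In B6 Aire-/- 36 of 49 tested members were lower and 3 higher, where 18.9% and 17.7% of all tested genes were. In Y86C/Y86C 44 of 51 were lower and 3 higher (all genes 27.9% and 21.7%). In C313X/C313X it was 41 of 53 and 2 (all genes 15.2% and 7.85%), and in C442G/C442G 44 of 52 and 3 (all genes 23.1% and 19.5%). On NOD, Aire-/- against Aire+/- gave 31 of 51 lower and 3 higher (all genes 9.11% and 4.21%), and -/C313Y gave 38 of 51 and 5 (all genes 12.9% and 9.83%). The members' median log2 fold change was -2.0, -3.17, -2.95, -2.77, -2.11 and -2.49 in these 6 comparisons, and over all tested genes it was -0.006, -0.032, -0.031, -0.002, -0.018 and -0.032. With a term for sex transcripts, C313X/C313X kept 26 of its 43 member calls, all 26 lower. TMM scaling, which corrects library totals for composition, moved the log2 values of these 6 comparisons upward by 0.11, 0.25, 0.20, 0.20, 0.15 and 0.12.

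Heterozygotes were set against wild types in the same way. In +/C442G 29 of 52 members were lower and 2 higher (all genes 13.4% and 13.1%). In +/C313Y 31 of 51 were lower and 0 higher (all genes 11% and 6.36%). The member medians were -0.92 and -2.30 against 0.012 and 0.005 for all genes. In B6 Aire+/- edgeR called 0 of 49 (either direction, all genes 0.48%), with 6 at an unadjusted p under 0.05 and 0 by DESeq2. In +/C313X edgeR called 0 of 53 (all genes 0%), with 2 unadjusted and 0 by DESeq2, from 2 heterozygous libraries. In +/Y86C 2 of 51 were called, both lower (all genes 3.37%), and DESeq2 called 0. In V303M/V303M edgeR called 0 of 51 (all genes 0.0657%), with 11 unadjusted and 1 by DESeq2, and in +/V303M 0 of 51 (all genes 0%), with 9 unadjusted and 0 by DESeq2.

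**Figure D2:**
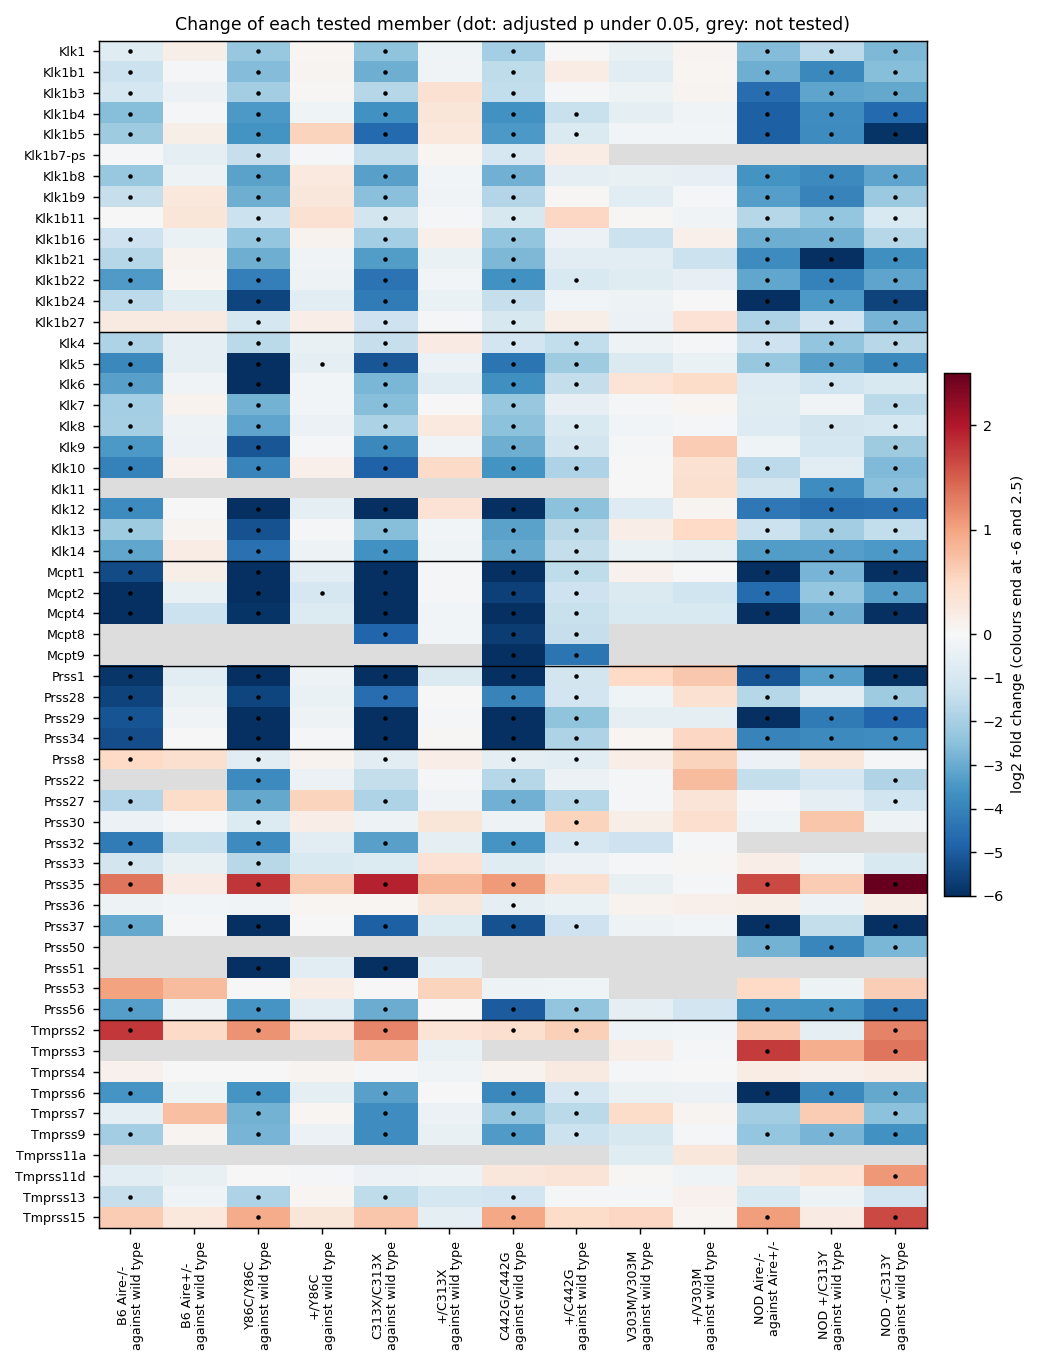
Log2 fold change of each tested member (rows, grouped by role) in the 13 comparisons (columns), on a colour scale that ends at -6 and 2.5, with a dot for an adjusted p under 0.05 and grey for not tested. Fitted values of groups at 0 counts depend on the prior count and are not bounds. Most rows are negative in the 4 B6 homozygotes, in +/C442G and the 3 NOD null and C313Y comparisons, and near 0 in the V303M line and in Aire+/- and +/C313X.

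Klk1 is tissue kallikrein, which releases kinins from kininogen, and it was among the most counted members. In the null line it stood at 115, 121 and 137 CPM in the wild types and at 59.7, 65, 65.2 and 87 CPM in Aire-/-. The log2 fold change was -0.75 ± 0.19, adjusted p = 0.0058 (± SE, edgeR). Wild types of the Y86C line held 212, 241 and 241 CPM and Y86C/Y86C held 27.4, 45.3 and 45.4 CPM (-2.27 ± 0.27, adjusted p = 0.000202). All 4 B6 homozygous groups lay wholly below their wild types: C313X/C313X at 36.5, 44 and 60.04 CPM against 224, 317 and 321 CPM, log2 fold change -2.43 ± 0.24, adjusted p = 7.36e-05. C442G/C442G ranged over 59.97 at the lowest, 69.9 at the median and 97.1 at the highest CPM against 265, 335 and 417 CPM, log2 fold change -2.04 ± 0.21, adjusted p = 6.92e-07. On NOD the drop was from 52.3, 78.8 and 79.3 CPM in Aire+/- to 3.25, 5.64 and 20.1 CPM in Aire-/- (-2.60 ± 0.50, adjusted p = 0.00112), again with no overlap. The C313Y groups did not overlap their controls either: +/C313Y libraries held 6.08, 10.8, 15.6 and 31.1 CPM against 39.8, 49.3, 50.1, 54.5 and 62 CPM (-1.55 ± 0.39, adjusted p = 0.00713). The -/C313Y libraries held 6.57, 9.13 and 17.9 CPM against 71.3, 82.6 and 86.1 CPM (-2.70 ± 0.47, adjusted p = 0.000244). In +/C442G Klk1 was not called: 209, 293, 296, 298 and 425 CPM overlapped the wild types (log2 fold change -0.02 ± 0.21, adjusted p = 0.953).

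The Klk1b genes, a rodent expansion next to Klk1, fell with it in most groups. Klk1 included, 11 of 14 tested in B6 were lower in Aire-/- (median log2 fold change -1.34), 14 of 14 in Y86C/Y86C (-2.78), 13 of 14 in C313X/C313X (-2.73) and 14 of 14 in C442G/C442G (-1.89). All 13 tested on NOD were lower in Aire-/- (-3.31), +/C313Y (-3.72) and -/C313Y (-3.08). Of all tested genes, 18.9%, 27.9%, 15.2% and 23.1% were lower in these B6 comparisons, and 9.11%, 11% and 12.9% in these on NOD. Some of the member calls did not hold throughout. Klk1b16 in -/C313Y was lost with DESeq2 (adjusted p = 0.0663), with all 8 NOD wild types as reference (0.355), with the replicate block (0.206) and without -/C313Y library 2 or 3 or wild type 2 or 3 (0.0633 to 0.144). With all 8 wild types Klk1b16 was also lost in NOD Aire-/- (0.0677) and Klk1b11 in -/C313Y (0.0937). Klk1b27 in +/C313Y was lost without the wild types titled C313T (0.0584), in the fit of only the compared groups (0.0537) and without heterozygotes 73 or 75 or wild types 45 or 78 (0.0836 to 0.133). On B6, Klk1b24 in Aire-/- was lost without any of KO_428, KO_431, KO_436, wt_432 and wt_434 (adjusted p up to 0.0962) and Klk1b21 without wt_430 (0.0611). In C442G/C442G Klk1b24 was lost without wild type 88 (0.0967) and Klk1b7-ps without 86 (0.0738). The sex term ended Klk1b1, Klk1b11 and Klk1b16 in C313X/C313X (adjusted p = 0.0752, 0.148 and 0.285). Klk1b9, which encodes an EGF-binding kallikrein, stood at 56.9, 85.2 and 90.2 CPM in wild type and 16.9, 23.2, 31.8 and 33.1 CPM in B6 Aire-/- (log2 fold change -1.40 ± 0.25, adjusted p = 0.000726). Its +/C313Y libraries held 2.41, 2.43, 3.04 and 4.65 CPM against 35, 35.7, 44.1, 66.7 and 88.8 CPM in wild types (-3.99 ± 0.34, adjusted p = 6.06e-09). None of these mutant libraries reached its controls. Klk1b8 was lower in all B6 homozygotes and in NOD Aire-/-, +/C313Y and -/C313Y, and no single library ended these calls. Klk1b4, the alpha subunit of the nerve growth factor complex, had group means of 24.8 and 3.79 CPM in wild type and Aire-/- (-2.56 ± 0.24, adjusted p = 1.25e-09). It was one of 3 genes of this group lower in +/C442G, beside Klk1b22 and Klk1b5, with 20.8, 22, 22.9, 23.7 and 27.9 CPM against 53, 67.8 and 74.8 CPM (-1.34 ± 0.17, adjusted p = 3.53e-07). Klk1b5 lost that call without any of 6 libraries, with adjusted p from 0.0576 without heterozygote 87 to 0.173 without wild type 89 (also without heterozygotes 81, 82 and 91 and wild type 86).

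In B6 Aire-/- 3 neighbours inside the cluster were not called. Klk1b11 stood at 62.7, 66.5 and 78.7 CPM in wild type and 51.9, 63.1, 63.8 and 76.6 CPM in Aire-/-, which overlap (log2 fold change 0.0 ± 0.17, adjusted p = 0.998). Klk1b27 stood at 16.4, 17.8 and 19.6 CPM and 16.9, 18, 19.9 and 22.4 CPM, which overlap too (0.22 ± 0.21, adjusted p = 0.451). The pseudogene Klk1b7-ps was also not called there (log2 fold change -0.09 ± 0.43, adjusted p = 0.89). Both Klk1b11 and Klk1b27 fell in the other B6 homozygotes. Klk1b11 stood at 44.8, 46.9 and 56.7 CPM in Y86C/Y86C against 137, 145 and 148 CPM (-1.28 ± 0.29, adjusted p = 0.00866), and its log2 fold change in C442G/C442G was -0.97 ± 0.23, adjusted p = 0.00268. In C313X/C313X it was -1.12 ± 0.27, adjusted p = 0.014, no longer called without homozygote 1 (adjusted p = 0.0572) or wild type 7 (0.0502). On NOD, Klk1b11 dropped from 66.1, 82 and 113 CPM in Aire+/- to 19.5, 22.1 and 29.6 CPM in Aire-/- (-1.70 ± 0.23, adjusted p = 5.48e-06). In +/C313Y it stood at 5.67, 5.72, 7.22 and 7.6 CPM against 25.2, 25.2, 38.4, 41.4 and 42.6 CPM (-2.30 ± 0.23, adjusted p = 2.36e-08). Klk1b3, the gamma subunit of the nerve growth factor complex, was lower in B6 Aire-/- (-1.07 ± 0.31, adjusted p = 0.0121) with overlapping ranges, and not without wt_434 (adjusted p = 0.0634). On NOD Klk1b3 fell from 19.3, 19.7 and 25.5 CPM in Aire+/- to 0, 0.868 and 1.19 CPM in Aire-/-.

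Klk4 to Klk14 occupy the other side of the locus, and all 10 tested on B6 were lower in Aire-/-, Y86C/Y86C, C313X/C313X and C442G/C442G. The median log2 fold changes were -3.19, -4.81, -3.20 and -3.13 (in Y86C/Y86C -4.80 with Klk12 at its bound). With the sex term, Klk8, Klk9, Klk13 and Klk14 lost their calls in C313X/C313X (adjusted p = 0.18, 0.129, 0.368 and 0.133), which left 6 of 10. In +/C442G 9 of 10 were lower (median -1.46). Klk6 lost its call there without heterozygote 87 (adjusted p = 0.054) or wild types 86, 88 or 89 (up to 0.0669 without 86). Klk9 lost its own without heterozygotes 82 or 87 or wild types 86 or 89 (up to 0.0869 without 89), and Klk10 without wild type 88 (0.106). DESeq2 gave adjusted p = 0.0772 for Klk6 and 0.137 for Klk10 there. On NOD, 6 of 11 were lower in Aire-/- (-1.26), 8 of 11 in +/C313Y (-2.10) and 10 of 11 in -/C313Y (-2.12). The shares of all tested genes are those given for the Klk1b genes, and 13.4% in +/C442G. In -/C313Y, Klk11 was lost without library 2 or wild type 3 (adjusted p = 0.0938 and 0.132) and Klk9 without libraries 1 or 3 or wild types 1 or 2 (up to 0.0888). Klk5, which starts the protease cascade that sheds the outer skin layer, stood at 28.3, 37.9 and 46.7 CPM in B6 wild type, 8.42, 18, 22, 34.9 and 36.4 CPM in Aire+/- and 1.38, 2.4, 2.57 and 3.38 CPM in Aire-/-. Aire-/- stood apart from both (log2 fold change against wild type -3.87 ± 0.45, adjusted p = 1.14e-05). In Y86C/Y86C it was 0.277, 0.294 and 1.5 CPM against 49.5, 60.4 and 78 CPM (-6.45 ± 0.34, adjusted p = 1.41e-15). The C442G line was graded, with 20.6, 43.8 and 50.8 CPM in wild type, 4.83, 6.91, 8.32, 9.62 and 10.7 CPM in +/C442G and 0.886 at the lowest, 1.58 at the median and 2.24 at the highest CPM in C442G/C442G. The 3 groups did not overlap (heterozygote -2.12 ± 0.23, adjusted p = 4.14e-08, homozygote -4.37 ± 0.27, adjusted p = 2e-14). In +/C313Y Klk5 was counted at 1.9, 3.21, 3.24 and 3.58 CPM against 8.62, 23, 33.9, 41.4 and 43.6 CPM in wild types (-3.24 ± 0.39, adjusted p = 1.05e-06). In -/C313Y it stood at 1.01, 2.52 and 4.11 CPM against 38.5, 39.1 and 47.8 CPM (-3.85 ± 0.44, adjusted p = 4.86e-07).

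Klk4, the enamel protease, left a larger remainder. It stood at 64.9, 79.3 and 83.1 CPM in B6 wild type and 16, 18.5, 19.4 and 23.7 CPM in Aire-/- (-1.86 ± 0.25, adjusted p = 4.2e-05). The C442G line held 59.2, 61.1 and 73 CPM in wild types, 16.5, 17.3, 21.6, 22.9 and 27.1 CPM in +/C442G and 21.1 at the lowest, 25.5 at the median and 32.1 at the highest CPM in C442G/C442G. The log2 fold change was -1.47 ± 0.16, adjusted p = 3.26e-08 in the heterozygotes and -1.15 ± 0.15, adjusted p = 1.12e-07 in the homozygotes. The heterozygotes and homozygotes of that line overlapped each other and neither overlapped the wild types. Klk7, the stratum corneum chymotryptic enzyme, was lower in the 4 B6 homozygotes, for example 7.19, 17.3, 19.9 and 20.4 CPM against 63.1, 68 and 94.6 CPM in Aire-/- (-2.04 ± 0.38, adjusted p = 0.00208). It was not called in +/C442G (-0.48 ± 0.22, adjusted p = 0.133), NOD Aire-/- (-0.74 ± 0.29, adjusted p = 0.11) or +/C313Y (-0.20 ± 0.24, adjusted p = 0.64). In +/C313Y its libraries held 63.8, 65, 81.4 and 93 CPM and overlapped the wild types at 59.2, 64.7, 93.9, 122 and 132 CPM. The -/C313Y libraries held 13.2, 18.8 and 30.9 CPM against 62.9, 70.4 and 76.1 CPM (-1.60 ± 0.31, adjusted p = 0.000483). The effects of +/C313Y and -/C313Y on Klk7 did not differ past the threshold (-1.40 ± 0.39, adjusted p = 0.106). Klk12 had 0 counts in Y86C/Y86C and C313X/C313X, at least 34.9-fold and 51.6-fold lower than their wild types at 11.7 and 14.6 CPM (floor of 3 counts over the group). Klk14, also active in skin shedding, stood at 36, 45.5 and 48.1 CPM in C442G wild types and 10.04, 12, 14.7, 16.9 and 19.7 CPM in +/C442G (-1.45 ± 0.27, adjusted p = 0.000461). Klk6, abundant in brain and spinal cord, fell from 39, 40.2 and 55.6 to 1.03, 1.88, 6.01 and 6.63 CPM in Aire-/- (-3.27 ± 0.46, adjusted p = 0.000154).

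The null effect on this side of the locus was tested for a difference between NOD and B6, and edgeR called 0 of 11, with 6 at an unadjusted p under 0.05 and a lowest adjusted p of 0.0636 (DESeq2 was not run on it). In NOD Aire-/- itself 5 of its genes were not called: Klk6 (log2 fold change -0.75 ± 0.37, adjusted p = 0.229), Klk7, Klk8, neuropsin (-0.77 ± 0.27, adjusted p = 0.0587), Klk9 (-0.24 ± 0.58, adjusted p = 0.878) and Klk11 (-1.10 ± 0.68, adjusted p = 0.363). Klk14 was lower, at 0, 3.47 and 4.74 CPM against 35.2, 35.5 and 36.7 CPM in Aire+/- (-3.37 ± 0.41, adjusted p = 1.67e-06). Klk10 was lower (-1.59 ± 0.43, adjusted p = 0.0129) and lost the call without Aire+/- library 392 (adjusted p = 0.0669), which held transcripts of both sexes, or Aire-/- library 406 (0.0799). With all 8 NOD wild types as reference its log2 fold change was -0.80 (adjusted p = 0.138). Klk6 in +/C313Y (-1.20 ± 0.33, adjusted p = 0.0136, overlapping ranges) was not called without heterozygote 53 (0.0532).

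**Figure D3:**
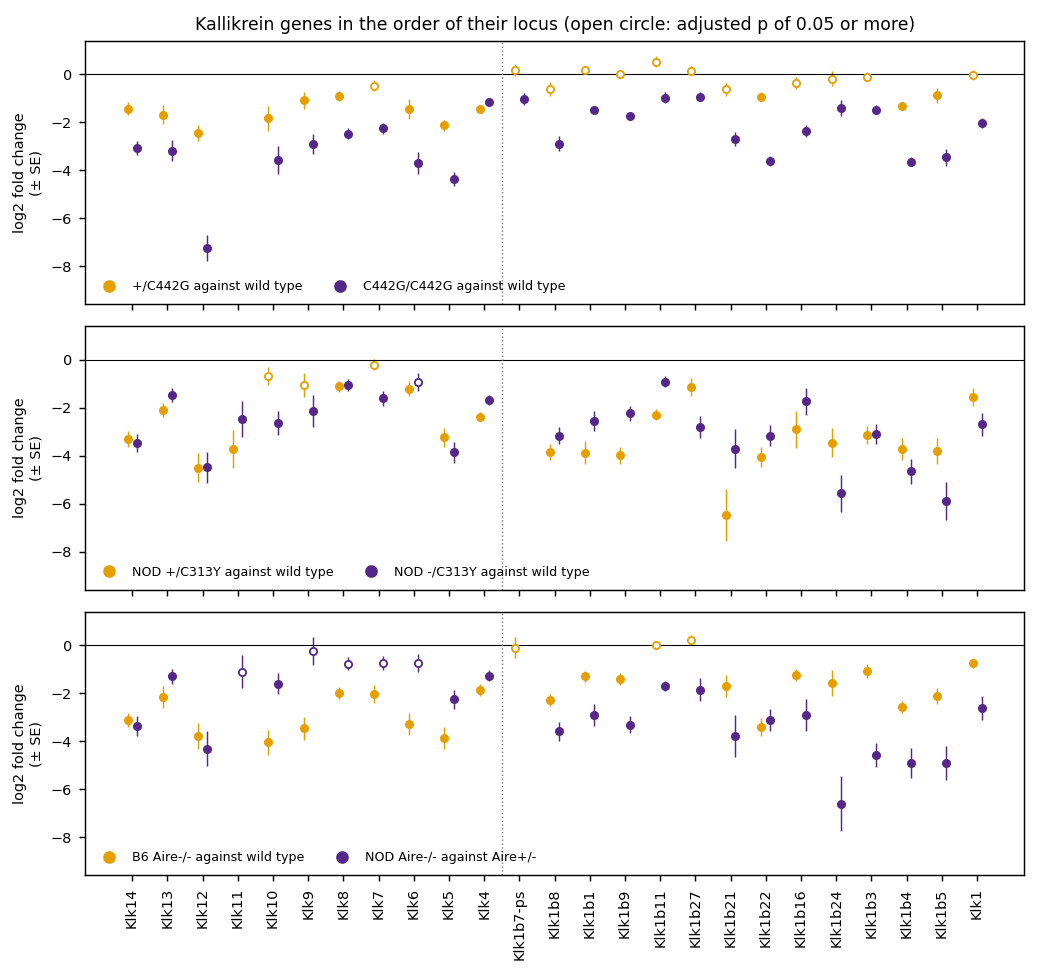
Log2 fold change of each gene of the kallikrein locus, in gene order from Klk14 to Klk1 along chromosome 7 (horizontal axis: gene order), with its SE, for C442G, C313Y and the null allele on both strains; open circles have an adjusted p of 0.05 or more. In B6 Aire-/- the Klk4 to Klk14 side lies lowest and Klk1b11, Klk1b27 and Klk1b7-ps lie near 0, and in +/C442G most of the Klk1b side lies near 0.

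The mast cell proteases fell to few or no counts in the 4 B6 homozygotes. All tested Mcpt genes were lower in the 8 comparisons picked for their many member calls, 3 of 3 to 5 of 5 (all genes lower 9.11% to 27.9%). Mcpt2 in +/C313Y was not called without the wild types titled C313T (adjusted p = 0.0631). Of the 13 comparisons, Mcpt8 was tested in 4 and Mcpt9 in 2. Such low genes may have passed the count filter only through the group where they were high, which would fix the direction of their calls. Mcpt1, a chymase of mucosal mast cells, stood at 14.9, 16 and 26 CPM in B6 wild type, 9.12, 17.2, 21.1, 23.1 and 30.2 CPM in Aire+/- and 0, 0, 0.514 and 1.2 CPM in Aire-/-. Aire-/- stood apart from both (log2 fold change -5.35 ± 0.58, adjusted p = 2.8e-07). It had 0 counts in all 3 Y86C/Y86C and all 3 C313X/C313X libraries, at least 86.9-fold and 64.2-fold lower than wild types at 29.2 and 17.3 CPM. In +/C442G Mcpt1 fell to 5.62, 5.73, 7.33, 8.01 and 8.55 CPM from 14.8, 19.9 and 29 CPM (-1.50 ± 0.25, adjusted p = 3.35e-05). In +/C313Y it fell to 0.405, 0.76, 1.6 and 5.01 CPM from 8.41, 10.5, 16.2, 18.6 and 23.1 CPM (-2.80 ± 0.43, adjusted p = 2.5e-05), and neither group overlapped its controls. Mcpt4, the chymase of connective tissue mast cells, was at 15.3, 15.4 and 16.5 CPM in wild type and gave 1 count over the 4 Aire-/- libraries, 168 (95% counting interval 29.5 to 6710) fold lower. Mcpt2 gave 1 count there and was 139.6 (95% counting interval 24.4 to 5580) fold lower than wild types at 8.87, 11.3 and 16.8 CPM. Mcpt8, made by basophils, averaged 5.45 CPM in C442G wild types and 1.92 CPM in +/C442G (-1.40 ± 0.45, adjusted p = 0.0204). That call was lost without heterozygote 87 (adjusted p = 0.0656) or wild type 89 (0.154). DESeq2 gave it adjusted p = 0.0553 and the sex term 0.0836.

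Markers of mast cells and basophils moved in both directions beside these proteases (shares of all tested genes as given with the member counts). Of that list, 5 of 8 were lower and 2 higher in Aire-/-, 6 of 9 were lower and 2 higher in Y86C/Y86C and 6 of 9 were lower and 2 higher in C313X/C313X. In the C442G line 5 of 8 were lower and 2 higher in homozygotes, and 3 of 8 were lower and 2 higher in heterozygotes. On NOD 5 of 9 were lower and 1 higher in Aire-/- and 5 of 9 were lower and 1 higher in -/C313Y. Cma1, a mast cell chymase, fell in B6 Aire-/- from 11.7 ± 3.68 to 0.367 ± 0.253 CPM (SD, n = 3 and 4, -4.71 ± 0.50, adjusted p = 9.16e-09). Tpsb2, a mast cell tryptase, fell from 13.1 ± 3.78 to 0.291 ± 0.217 CPM (-5.20 ± 0.48, adjusted p = 7.94e-10). Kit, the stem cell factor receptor, rose from 31.1 ± 0.891 to 62.6 ± 6.58 CPM (1.12 ± 0.15, adjusted p = 6.33e-07) in B6 Aire-/-. Kit was not called in NOD Aire-/- (0.32 ± 0.26, adjusted p = 0.517), +/C313Y (-0.21 ± 0.22, adjusted p = 0.578) or -/C313Y (0.68 ± 0.26, adjusted p = 0.065). Hdc, which makes histamine, rose in B6 Aire-/- from 892 ± 68.8 to 1511 ± 144 CPM (0.86 ± 0.12, adjusted p = 7.83e-06). The mast cell carboxypeptidase Cpa3 stood at 0 to 3.42 CPM in the groups of the tables that list it. Of this list Cma1, Ms4a2, Tpsab1 and Tpsb2 were at 0 counts in C313X/C313X, and Cpa3, Fcer1a, Ms4a2 and Tpsb2 in Y86C/Y86C. Cpa3 was at 0 in both NOD null groups and Tpsab1 in NOD Aire-/-. The summed list averaged 757 to 1816 CPM over the groups, mostly Hdc.

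Lists for other cells were read beside the members as well. Of all tested genes, 18.9% were lower and 17.7% higher in B6 Aire-/-, and 27.9% and 21.7% in Y86C/Y86C. The shares were 15.2% and 7.85% in C313X/C313X, and 23.1% and 19.5% in C442G/C442G. On NOD they were 9.11% and 4.21% in Aire-/-, 11% and 6.36% in +/C313Y and 12.9% and 9.83% in -/C313Y. Several of the counts below lie near these shares. Of markers of mTEChi, 0 of 9 were lower and 7 higher in B6 Aire-/-, 1 of 9 were lower and 7 higher in Y86C/Y86C, 1 of 9 were lower and 3 higher in C313X/C313X and 0 of 9 were lower and 5 higher in C442G/C442G. On NOD 0 of 9 were lower and 3 higher in Aire-/-, 0 of 9 were lower and 2 higher in +/C313Y and 0 of 9 were lower and 5 higher in -/C313Y. The summed list averaged 31076 CPM in wild types of the B6 null line and 41575 CPM in Aire-/-. Of cortical epithelial markers, the protease Ctsl and the Notch ligand Dll4 were lower and the chemokine Ccl25 and Tbata higher in the 4 B6 homozygotes and +/C442G. On NOD 0 of 6 were lower and 1 higher in Aire-/-, 0 of 6 were lower and 2 higher in +/C313Y and 0 of 6 were lower and 2 higher in -/C313Y. That list averaged 2352 CPM in the null line's wild types and 4365 CPM in Aire-/-. Of thymocyte markers, 0 of 5 were lower and 0 higher in B6 Aire-/-, 2 of 5 were lower and 1 higher in Y86C/Y86C, 4 of 8 were lower and 0 higher in C313X/C313X and 1 of 6 were lower and 1 higher in C442G/C442G, and the list summed to means of 32.3 to 137 CPM over the groups. Macrophage and dendritic cell markers went both ways. Of these 2 of 8 were lower and 3 higher in B6 Aire-/-, 3 of 7 were lower and 3 higher in Y86C/Y86C, 4 of 8 were lower and 1 higher in C313X/C313X and 4 of 8 were lower and 3 higher in C442G/C442G (means 577 to 1495 CPM). Of fibroblast markers, 1 of 5 were lower and 2 higher in B6 Aire-/-, 4 of 5 were lower and 1 higher in Y86C/Y86C, 0 of 5 were lower and 0 higher in C313X/C313X and 1 of 5 were lower and 1 higher in C442G/C442G (means 112 to 452 CPM). In the Y86C line the fibroblast list summed to 256 CPM in wild types and 452 CPM in homozygotes. Ptcra, in NOD Aire-/-, was the only listed marker of these 5 lists with 0 counts in a group. The part of these cells in the members' levels was not tested.

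Prss29, a uterine implantation protease, belongs with Prss1, Prss28 and Prss34 to a group of trypsins and tryptase-locus genes. In the 8 comparisons with many calls 4 of 4 tested were lower, except 3 of 4 in +/C313Y (all genes lower 9.11% to 27.9%). It stood at 52, 78 and 82.4 CPM in B6 wild type, 44.2, 52.6, 61.5, 71.2 and 74.4 CPM in Aire+/- and 1.2, 1.38, 1.5 and 3.6 CPM in Aire-/-. Only the Aire-/- libraries stood apart (log2 fold change against wild type -5.18 ± 0.28, adjusted p = 2.33e-12). No C313X/C313X library held a count, at least 456-fold lower than wild types at 93.8, 120.1 and 165 CPM. The Y86C/Y86C libraries held 0.588, 0.83 and 0.998 CPM against 139.5, 139.6 and 158 CPM (-7.23 ± 0.22, adjusted p = 8.68e-22). The C442G groups did not overlap, at 129.8, 130.2 and 179.9 CPM in wild type, 17.1, 20.7, 22.9, 26.7 and 34.5 CPM in +/C442G and 0 at the lowest, 0.424 at the median and 0.886 at the highest CPM in C442G/C442G. The log2 fold change was -2.44 ± 0.16, adjusted p = 1.87e-11 in heterozygotes and -8.05 ± 0.26, adjusted p = 2.37e-20 in homozygotes. On NOD, +/C313Y held 0, 1.52, 2.5 and 4.41 CPM against 23.3, 38.2, 45.4, 48 and 65.6 CPM (-4.25 ± 0.43, adjusted p = 1.18e-07). There were 2 counts left over the 3 NOD Aire-/- libraries, 164 (95% counting interval 45 to 1354) fold lower than Aire+/- at 37.9, 53.8 and 58.8 CPM.

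Prss34, a protease of mast cells and basophils, followed Prss29 in the same cluster. It fell from 35, 38.5 and 43.8 CPM in wild type to 0, 1.03, 1.2 and 1.5 CPM in Aire-/- (-5.34 ± 0.37, adjusted p = 3.51e-11). It had 0 counts in C313X/C313X, at least 266-fold lower than 79.1 CPM. It stood at 7.06, 11, 14.1, 17.3 and 21.9 CPM in +/C442G against 44, 60.9 and 62.3 CPM (-1.83 ± 0.22, adjusted p = 3.44e-07). Prss28, its other neighbour and also a uterine implantation protease, averaged 7.25 CPM in wild type and gave 1 count in Aire-/-. It was the member of this group not called in +/C313Y (2.86, 3.42, 4.05 and 4.41 CPM against 4.8, 6.03, 6.16, 6.8 and 7.43 CPM, -0.67 ± 0.30, adjusted p = 0.131). Prss1, a pancreatic trypsin, gave 2 counts over the Aire-/- libraries, 76.5 (95% counting interval 20.6 to 642) fold lower than wild types at 10.3, 11.7 and 23.1 CPM. No C313X/C313X library held a count of it, at least 66.9-fold lower. In +/C442G it was lower (-1.11 ± 0.33, adjusted p = 0.0161) with overlapping ranges, and not without wild type 86 (adjusted p = 0.185).

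**Figure D4:**
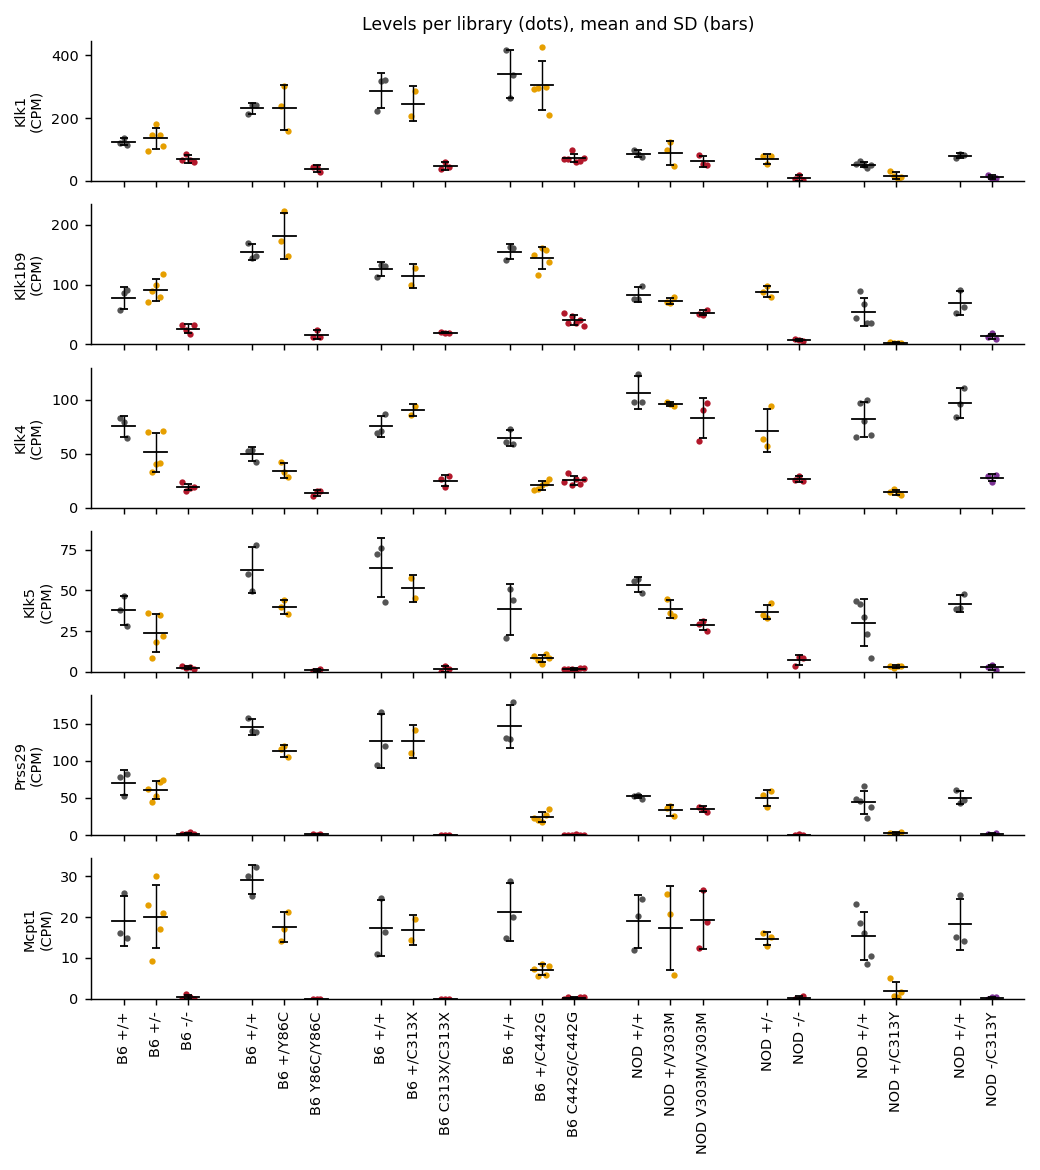
CPM of Klk1, Klk1b9, Klk4, Klk5, Prss29 and Mcpt1 in every library, by group, on linear axes from 0; dots are libraries and bars the mean and SD. Outside the V303M line, homozygous mutants and -/C313Y lie below their controls for all 6 genes, and +/C442G overlaps its wild types for Klk1 and Klk1b9 but not for the other 4.

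The remaining Prss genes were mixed. On B6 5 of 10 were lower in Aire-/-, 9 of 12 in Y86C/Y86C, 6 of 12 in C313X/C313X, 7 of 11 in C442G/C442G and 5 of 11 in +/C442G. On NOD it was 3 of 11 in Aire-/-, 2 of 11 in +/C313Y and 5 of 11 in -/C313Y. Of all tested genes, 18.9%, 27.9%, 15.2%, 23.1% and 13.4% were lower in these B6 comparisons, and 9.11%, 11% and 12.9% in these on NOD. The 2 of 11 in +/C313Y lie near the share of all genes. All 6 calls in C313X/C313X were lost with the sex term (adjusted p from 0.053 for Prss51 to 0.735 for Prss8). Single libraries ended other calls. In +/C442G these were Prss32 without wild type 86 (adjusted p = 0.09) and Prss37 without heterozygotes 82 or 85 or wild type 89 (up to 0.169). In C442G/C442G, Prss22 and Prss36 were lost without wild type 89 (0.0669 and 0.194). Prss50 was lost in NOD Aire-/- without any of 392, 402, 405 and 406 (up to 0.28) and in -/C313Y without library 1 (0.0567). In -/C313Y, Prss27 was lost without libraries 1 or 2 or wild types 2 or 3 (up to 0.113), and Prss22 with all 8 NOD wild types as reference (0.133). Prss56, expressed in the eye, fell from 4.74, 8.87 and 12.4 to 0, 0, 1.11 and 1.5 CPM in Aire-/- (-3.32 ± 0.65, adjusted p = 0.000257). It stood at 0.432, 0.744, 1.54, 2.15 and 2.29 CPM in +/C442G against 7.42, 7.65 and 11.4 CPM (-2.39 ± 0.43, adjusted p = 9.42e-05). Prss27 (marapsin) was lower in +/C442G, 5.5, 6.47, 9.07, 9.94 and 13.8 CPM against 27.4, 31.3 and 37.4 CPM (-1.72 ± 0.23, adjusted p = 1.03e-06), and in Aire-/- (-1.75 ± 0.56, adjusted p = 0.0223). The Aire-/- call was lost without any of KO_429, KO_436, wt_430 and wt_434, with adjusted p from 0.0519 (KO_429) to 0.0948 (wt_430). On NOD it was not called in Aire-/- (6.51, 9.76 and 13 CPM against 7.31, 13.5 and 14.4 CPM, -0.09 ± 0.32, adjusted p = 0.923). Prss32 averaged 6.51 CPM in wild type and gave 3 counts over the Aire-/- libraries, 23.6 (95% counting interval 7.53 to 119) fold lower. Prss33 was lower in B6 Aire-/- and Y86C/Y86C only. Both calls held whichever single library was left out (adjusted p up to 0.00291 and 0.00224).

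Prss8, prostasin, which acts on epithelial sodium channels, went up in one line and down in others. It stood at 24.4, 27.3 and 28.4 CPM in B6 wild type and 27.7, 32.1, 33.4 and 45.3 CPM in Aire-/-, with overlapping ranges (log2 fold change 0.49 ± 0.19, adjusted p = 0.0422). That call was lost without any 1 of 6 libraries, from 0.0511 without KO_436 to 0.169 without wt_430 (also KO_428, KO_429, wt_432 and wt_434), without TMM factors (adjusted p = 0.116), with DESeq2 (0.0845) and with the sex term (0.0847). In Y86C/Y86C it was lower, at 16.1, 17.1 and 22.9 CPM against 32.4, 33.8 and 34.1 CPM (-0.63 ± 0.17, adjusted p = 0.00236). It was lower in C442G/C442G too, at 24.4 at the lowest, 30.8 at the median and 37.6 at the highest CPM against 38.7, 55.2 and 64.5 CPM (-0.60 ± 0.15, adjusted p = 0.00184), and in +/C442G, at 23.8, 27.5, 29.4, 32.7 and 34.9 CPM (-0.69 ± 0.16, adjusted p = 0.00149). None of these 3 mutant groups overlapped its wild types. In C313X/C313X it was lower too (-0.63 ± 0.20, adjusted p = 0.04) and not without homozygote 1, 10 or 14 or wild type 6 (adjusted p from 0.0987 without 10 to 0.174 without 6), with DESeq2 (0.0844) or with the sex term (0.735). Prss30, an intestinal channel-activating protease, was lower in Y86C/Y86C (10.9, 11 and 11.3 CPM against 19.7, 22.8 and 25.9 CPM, -0.80 ± 0.21, adjusted p = 0.00222). It was higher in +/C442G (0.56 ± 0.19, adjusted p = 0.0281) with overlapping ranges. The latter was lost without heterozygote 82 (adjusted p = 0.102) or wild types 88 (0.178) or 89 (0.109). It was also lost with DESeq2 (adjusted p = 0.0705), without TMM factors (0.0979) and in the fit of only the compared groups (0.0696).

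Prss35, a secreted protein with a protease-like fold, rose in the 4 B6 homozygotes and in NOD Aire-/- and -/C313Y, with no overlap in any of them. It stood at 3.55, 7.21 and 9.85 CPM in wild type and 14.7, 15.6, 18.5 and 19.9 CPM in Aire-/- (log2 fold change 1.34 ± 0.31, adjusted p = 0.0012). In the Y86C line it was 4.63, 5.83 and 10.1 CPM in wild type and 19.4, 19.96 and 20.8 CPM in homozygotes (1.80 ± 0.25, adjusted p = 5.75e-07). C313X wild types held 2.08, 3.68 and 3.72 CPM and homozygotes 9.26, 9.72 and 11.7 CPM (1.93 ± 0.36, adjusted p = 0.00319, and adjusted p = 0.305 with the sex term). C442G/C442G held 15.5 at the lowest, 21.5 at the median and 26.9 at the highest CPM against 2.85, 15 and 15.4 CPM (1.07 ± 0.27, adjusted p = 0.00234). The C442G wild types were the only ones of these with 2 libraries close to the mutants. On NOD it rose from 3.82, 4.33 and 4.54 to 8.46, 12.6 and 14.3 CPM in Aire-/- (1.64 ± 0.39, adjusted p = 0.00413). In -/C313Y it rose from 1.1, 1.13 and 2.07 to 5.75, 8.49 and 11.5 CPM (2.64 ± 0.47, adjusted p = 0.000107). It was not called in +/C442G, at 10.5, 12.5, 14.1, 15.4 and 16.7 CPM (0.40 ± 0.29, adjusted p = 0.343), or in +/C313Y, at 3.04, 4.41, 4.86 and 6.44 CPM (0.64 ± 0.37, adjusted p = 0.279).

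The type II transmembrane proteases went both ways. On B6 3 of 8 were lower and 1 higher in Aire-/-, 4 of 8 and 2 in Y86C/Y86C. It was 4 of 9 and 1 in C313X/C313X, 4 of 8 and 2 in C442G/C442G, and 3 of 8 and 1 in +/C442G. On NOD it was 2 of 9 and 2 in Aire-/-, 2 of 9 and 0 in +/C313Y, and 3 of 9 and 4 in -/C313Y. Of all genes 9.11% to 27.9% were lower and 4.21% to 21.7% higher, and some of these counts lie near such shares. Among them Tmprss2, an androgen-responsive epithelial protease that also primes viral spike proteins, rose in B6 Aire-/-. It stood at 40.2, 40.5 and 44.3 CPM in wild type, 47.7, 49.8, 59, 63.1 and 67 CPM in Aire+/- and 111, 121, 129 and 165 CPM in Aire-/-. The 3 groups did not overlap (log2 fold change of Aire-/- 1.77 ± 0.14, adjusted p = 1.24e-10). Aire+/- itself was not called (0.48 ± 0.15, adjusted p = 0.19). In Y86C/Y86C it was at 72.8, 103 and 117 CPM against 44.4, 50.6 and 61.2 CPM (1.12 ± 0.20, adjusted p = 0.00058). The C313X/C313X libraries held 71, 78.2 and 82 CPM against 25.5, 37.7 and 50.8 CPM (1.21 ± 0.31, adjusted p = 0.0175). That call was lost without homozygote 10 (adjusted p = 0.0524) or wild type 2 (0.0517) and with the sex term (0.946). In the C442G line, +/C442G stood above wild type (123, 134, 144, 149 and 152 CPM against 77.4, 112 and 113 CPM, 0.60 ± 0.14, adjusted p = 0.00233). C442G/C442G overlapped it, at 86.1 at the lowest, 118 at the median and 144 at the highest CPM (0.40 ± 0.14, adjusted p = 0.0226), and was no longer called without homozygote 84 (0.0609) or wild type 89 (0.181) or without TMM factors (0.289), and in the fit of only the compared groups (0.0504). On NOD it rose in -/C313Y from 9.77, 11.9 and 16.4 to 23, 26.3 and 31.1 CPM (1.24 ± 0.26, adjusted p = 0.000748). It stood at 6.02, 6.89, 7.98 and 11.8 CPM in +/C313Y against 6.78, 11.7, 14.6, 15.8 and 17.5 CPM (-0.60 ± 0.25, adjusted p = 0.0998).

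Tmprss15, enteropeptidase, which activates trypsinogen in the gut, was higher in Y86C/Y86C (15, 15.8 and 19.1 CPM against 9.42, 10.7 and 10.9 CPM, 0.93 ± 0.22, adjusted p = 0.000703) and C442G/C442G (0.97 ± 0.27, adjusted p = 0.00459). On NOD it was higher in Aire-/- (10.4, 14.3 and 15.8 CPM against 6.77, 7.2 and 7.93 CPM, 1.05 ± 0.29, adjusted p = 0.0131) and -/C313Y (1.66 ± 0.34, adjusted p = 0.000527). None of these 4 groups overlapped its controls. The NOD Aire-/- call was lost without heterozygote 402 (adjusted p = 0.0532) or homozygote 405 (0.0776). In B6 Aire-/- it did not pass (0.64 ± 0.31, adjusted p = 0.112). Tmprss3, needed for hearing, was higher in NOD Aire-/- (14.6, 16.9 and 17.8 CPM against 2.64, 4.54 and 8.67 CPM, 1.75 ± 0.39, adjusted p = 0.0024) and in -/C313Y (1.33 ± 0.46, adjusted p = 0.0357). The -/C313Y call was lost without any of 5 of its 6 libraries, with adjusted p from 0.0747 (wild type 3) to 0.147 (-/C313Y 1; also -/C313Y 2 and wild types 1 and 2), and without TMM factors (0.0572). Tmprss11d, the airway trypsin-like protease, was higher in -/C313Y (78.5, 80.2 and 115 CPM against 39.1, 44.7 and 55.5 CPM, 1.09 ± 0.32, adjusted p = 0.0174). That call was lost without -/C313Y library 1 (0.0918) or wild type 1 (0.0612) or 2 (0.0649).

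Tmprss6 and Tmprss9 fell in all 8 comparisons with many calls, though Tmprss9 in C313X/C313X not with the sex term (adjusted p = 0.0969). Tmprss6, matriptase-2, which restrains hepcidin in the liver, stood at 12, 17.1 and 19.1 CPM in B6 wild type and 0.376, 0.401, 1.66 and 2.57 CPM in Aire-/- (-3.55 ± 0.43, adjusted p = 2.02e-07). In +/C313Y it was 0, 0.401, 0.715 and 1.52 CPM against 6.78, 8.09, 11.3, 13.9 and 14.9 CPM (-3.87 ± 0.48, adjusted p = 1.32e-06). It had 0 counts in NOD Aire-/-, at least 19.2-fold lower than Aire+/- at 8.93 CPM. Tmprss9, polyserase, fell from 3.09, 6.93 and 8.28 to 0.802, 1.03, 1.13 and 1.94 CPM in Aire-/- (-2.09 ± 0.51, adjusted p = 0.00168). Tmprss7 was lower in 5 of these 8 comparisons: Y86C/Y86C, C313X/C313X, C442G/C442G, +/C442G and -/C313Y. Its -/C313Y call was lost without any of 4 of the 6 libraries (adjusted p up to 0.212). It was also lost with all 8 NOD wild types as reference (0.0707) and with the sex term (0.0516). Tmprss13, mosaic serine protease, was lower in the B6 homozygotes, 1.03, 3.87, 5.26 and 6.81 CPM against 8.24, 11.7 and 17.8 CPM in Aire-/- (-1.39 ± 0.35, adjusted p = 0.00203). It was not called in +/C442G (-0.14 ± 0.26, adjusted p = 0.738) or +/C313Y (-0.28 ± 0.30, adjusted p = 0.602). The C313X/C313X call was lost without homozygote 1 (adjusted p = 0.0913), 14 (0.0654) or wild type 6 (0.101) and with the sex term (0.573). Tmprss4, an epithelial protease with the highest count level of the family on NOD, was called in no comparison. B6 libraries held 215, 228 and 259.6 CPM in wild type and 225, 230.1, 238 and 242 CPM in Aire-/- (0.10 ± 0.09, adjusted p = 0.418). On NOD they held 393 ± 34.3 CPM (SD, n = 3) in wild type and 405, 406 and 413 CPM in -/C313Y (0.18 ± 0.13, adjusted p = 0.371). Prss53 and Tmprss11a were the other members tested and never called.

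**Figure D5:**
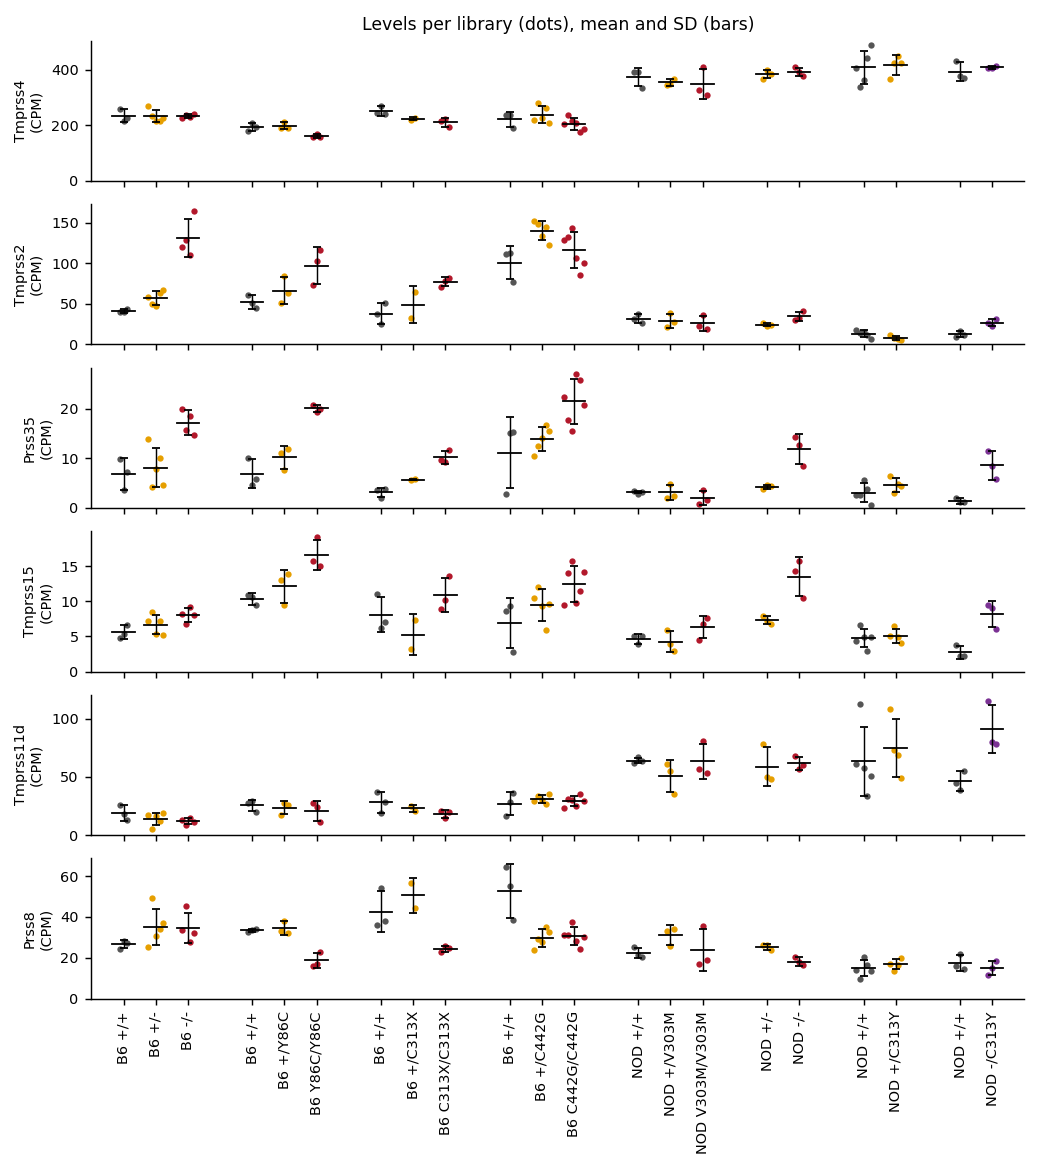
CPM of Tmprss4, Tmprss2, Prss35, Tmprss15, Tmprss11d and Prss8 in every library, by group, on linear axes from 0; dots are libraries and bars the mean and SD. Tmprss4 stays near its controls in every line, and Prss35 and Tmprss2 lie above them in B6 Aire-/-, Y86C/Y86C, C313X/C313X and -/C313Y.

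In the V303M line edgeR called no member, DESeq2 called 1 in V303M/V303M and 0 in +/V303M, and leaving out single libraries gave 0 to 2 in V303M/V303M. Klk5 came nearest to a call in V303M/V303M, with 48.2, 56 and 56.9 CPM in wild type, 34.3, 36.4 and 44.9 CPM in +/V303M and 25.2, 29.3 and 31.1 CPM in V303M/V303M. These groups do not overlap (log2 fold change -0.87 ± 0.16, adjusted p = 0.0529). Klk1b9 followed, at 49.96, 50.5 and 57.6 CPM against 75.2, 76.1 and 97.3 CPM, also without overlap (-0.61 ± 0.16, adjusted p = 0.21). Prss29 stood at 49.1, 53 and 53.8 CPM in wild type, 25, 36.1 and 39.4 CPM in +/V303M and 31.5, 35.6 and 38.4 CPM in V303M/V303M (homozygote -0.53 ± 0.17, adjusted p = 0.439). Mcpt1 overlapped between wild type (11.9, 20.3 and 24.5 CPM) and V303M/V303M (12.5, 18.9 and 26.6 CPM). The member median was -0.25 in homozygotes and -0.0024 in heterozygotes. For the 3 tested Mcpt genes the median was -0.87 in homozygotes and -0.91 in heterozygotes, and none was called. In +/Y86C the called genes were Klk5 and Mcpt2. Klk5 stood at 35.7, 39.7 and 44.1 CPM against 49.5, 60.4 and 78 CPM (-0.60 ± 0.16, adjusted p = 0.039), and Mcpt2 at 10.6, 12 and 13.1 CPM against 17.8, 22 and 34.8 CPM (-0.99 ± 0.25, adjusted p = 0.0221). Klk5 lost its call without any of heterozygotes 3, 10 and 14 and wild types 1 and 3, with adjusted p from 0.0539 (heterozygote 10) to 0.276 (wild type 3). Mcpt2 lost its own without any heterozygote or wild type 1, from 0.0559 (heterozygote 14) to 0.199 (wild type 1).

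Whether alleles differed was tested directly in a joint fit of the 4 B6 lines, each effect taken against its own wild types and then against that of the null line. The effect of +/C442G was lower than that of Aire+/- for 13 of 54 tested members and higher for 0. Of all 14547 tested genes, 511 were lower and 326 higher. Prss29 differed by -2.23 ± 0.26, adjusted p = 1.14e-06, Klk12 by -2.41 ± 0.47, adjusted p = 0.000964 and Prss34 by -1.83 ± 0.33, adjusted p = 0.000649 (log2). Klk1b4 differed by -1.27 ± 0.26, adjusted p = 0.00157, Prss27 by -2.18 ± 0.45, adjusted p = 0.00191 and Prss8 by -1.09 ± 0.25, adjusted p = 0.00472. These 6 kept their call whichever single library was left out. Mcpt1 differed by -1.64 ± 0.40, adjusted p = 0.00908 and lost the call without C442G wild type 88 (adjusted p = 0.0659). For Klk1 that difference was -0.16 ± 0.33, adjusted p = 0.854 and for Klk1b9 -0.23 ± 0.27, adjusted p = 0.701, neither past the threshold. In homozygotes, Y86C was lower than the null for 4 members (all genes 2%), C313X for 6 (2.69%) and C442G for 5 (2.91%), and 0 were higher. Klk1 and Prss8 were in all 3 sets. With the sex term both lost the Y86C difference (adjusted p = 0.05 and 0.0503), and Prss8 that of C313X (0.186). Klk1 differed by -1.60 ± 0.37, adjusted p = 0.0166 in C313X, a call lost without homozygote 1 (adjusted p = 0.0546) and with the sex term (0.0773). Prss8 differed by -1.04 ± 0.25, adjusted p = 0.0113 in C442G, lost without wt_430 of the null line (0.052). Prss29 was lower than in the null by -2.82 ± 0.67, adjusted p = 0.0134 in C442G, lost without KO_431 of the null line (0.059). Tmprss2, which was called higher in both, differed by -1.32 ± 0.29, adjusted p = 0.00839 and kept its call without any single library. These differences share the null line's 3 wild types: without wt_430 the counts fell to 0 for Y86C, 2 for C313X, 2 for C442G homozygotes and 8 for C442G heterozygotes. The counts also came to 0 for Y86C without homozygote 4, and to 1 and 10 for C313X without homozygote 1 and wild type 2.

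On NOD, the effects of -/C313Y and +/C313Y, taken against different wild types, differed for 2 members (all genes 0.427%). Tmprss2 differed by 1.84 ± 0.36, adjusted p = 0.0149 and Klk1b11 by 1.39 ± 0.32, adjusted p = 0.0447, both higher in -/C313Y. Without wild type 1 of the -/C313Y series 0 were called (Tmprss2 adjusted p = 0.0595). Klk1b11 was also lost without heterozygotes 73 or 75, -/C313Y libraries 1 or 2, wild types 47 or 52 or wild types 2 or 3 of the -/C313Y series (adjusted p up to 0.117). The null allele's effect against Aire+/- differed between strains for 4 members (all genes 1.04%). Klk1b3 (-3.83 ± 0.66, adjusted p = 0.00069) and Klk1b11 (-1.39 ± 0.27, adjusted p = 0.00286) were lower on NOD and kept the call whichever single library was left out. Klk1b27 was lower (-1.84 ± 0.48, adjusted p = 0.0437) and Prss27 higher (2.14 ± 0.56, adjusted p = 0.047). Each lost its call without any of NOD libraries 392, 395, 402, 405 or 406 or B6 libraries KO_429, het_435 or KO_436. Klk1b27 also lost it without 404, KO_428, het_433 or het_439, and Prss27 without het_440. With the sex term both were lost too (adjusted p = 0.0532 and 0.0536), and Prss27 also without a count filter (0.0506). Without single libraries the adjusted p reached 0.168 for Klk1b27 and 0.222 for Prss27, both without 405. Strain, line and cohort cannot be told apart here, and 2 members were called without NOD library 392, 395 or 406.

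Genes that work with these proteases were read from lists kept apart from the members. The shares of all tested genes called in each comparison are those given with the member counts, and some list counts lie near them. Of protease inhibitors, 7 of 15 were lower and 0 higher in B6 Aire-/-, 15 of 18 were lower and 1 higher in Y86C/Y86C and 8 of 16 were lower and 0 higher in C313X/C313X. In the C442G line 16 of 20 were lower and 1 higher in homozygotes, and 7 of 20 were lower and 1 higher in heterozygotes. On NOD 8 of 19 were lower and 0 higher in Aire-/-, 4 of 19 were lower and 2 higher in +/C313Y and 9 of 19 were lower and 2 higher in -/C313Y. In B6 Aire-/- the serpin Serpina3n stood at 3.34 ± 1.58 CPM against 16.6 ± 4.95 CPM (SD, n = 4 and 3, log2 fold change -2.29 ± 0.32, adjusted p = 1.59e-06). On NOD it was not called in Aire-/- (0.01 ± 0.34, adjusted p = 0.997), +/C313Y (0.12 ± 0.27, adjusted p = 0.83) or -/C313Y (-0.26 ± 0.34, adjusted p = 0.653). The secretory leukocyte inhibitor Slpi fell in B6 Aire-/- (-3.53 ± 0.36, adjusted p = 7.63e-06), as did the Kazal-type inhibitors Spink7 (-4.17 ± 0.68, adjusted p = 1.39e-05) and Spink2 (-2.87 ± 0.59, adjusted p = 0.000277). These 3 were lower in NOD Aire-/- and -/C313Y too, while Slpi was not called in +/C313Y (-0.25 ± 0.42, adjusted p = 0.764). Of activators, receptors and substrates, 2 of 14 were lower and 5 higher in Aire-/- and 5 of 15 were lower and 5 higher in Y86C/Y86C. Kng1, the kininogen that tissue kallikrein cuts, fell in B6 Aire-/- (-4.26 ± 0.37, adjusted p = 2.24e-10), as did Cdsn, corneodesmosin, a target of the skin kallikreins (-1.53 ± 0.29, adjusted p = 0.000115). St14, the membrane protease matriptase, rose there (0.79 ± 0.10, adjusted p = 1.88e-07). On NOD Kng1 was lower in Aire-/-, +/C313Y and -/C313Y. Cdsn and St14 were called in none of these 3, with adjusted p from 0.183 to 0.904. Of relatives that the rule does not take in, 9 of 23 were lower and 1 higher in Aire-/- and 17 of 22 were lower and 2 higher in Y86C/Y86C. In +/C442G 12 of 24 were lower and 1 higher, and in +/C313Y 16 of 26 were lower and 2 higher. The pancreatic elastase Cela3b (-5.98 ± 0.43, adjusted p = 9.82e-12) and the tryptase Tpsg1 (-4.75 ± 0.39, adjusted p = 9.71e-11) fell in B6 Aire-/-. So did the granzymes Gzmb (-4.34 ± 0.55, adjusted p = 2.21e-07) and Gzmc (-4.06 ± 0.53, adjusted p = 9.06e-07), and on NOD these 4 were lower in Aire-/-, +/C313Y and -/C313Y.

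Of the 69 members, 57 had enough counts to be tested in at least 1 table. The other 12 (Prss3, Prss12, Prss39, Prss40, Prss41, Prss43, Prss44, Prss46, Prss52, Prss57, Tmprss5 and Tmprss11e) were tested nowhere and had to be left without a comparison at this depth. Of the tested members, 49 were lower in at least 1 comparison and 7 higher: Prss35, Tmprss2, Tmprss15, Tmprss3, Tmprss11d, Prss8 and Prss30, the last 2 called in both directions. A member that passed the count filter only through the group where it was high had to differ, so these counts are no measure of all 69.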

How the data were processed

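The 74 bulk MARS-seq libraries of sorted mTEChi, labelled by strain and Aire genotype, were read from 6 deposited tables. The submitters' processing notes name the build mm10 and the tools STAR 2.4.2a, HTSeq, cutadapt, bcl2fastq and DESeq2. Settings, annotation, strand use and collapse of molecular identifiers are not given in the sources used here. From each table only the raw count columns that the authors deposited were taken.

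CPM were counts divided by the library total. Tests were edgeR 4.0.16 quasi-likelihood tests (TMM factors, filterByExpr, robust fit, all groups of a table in 1 fit), with Benjamini-Hochberg adjustment over all genes tested and a threshold of 0.05. SE is the log2 fold change divided by the root of F. Differences between B6 lines came from 1 fit of 14547 genes. Intervals and floors (3 counts) cover counting error only. The script was tested on simulated counts. Members, lists and tests were chosen with earlier results of these data known. Named were called members with at least 5 CPM in a group, the 10 highest in wild types, and up to 4 genes of each other list. Alternatives were RLE size factors, DESeq2 1.42.0, no count filter, no TMM factors, a sex term, only the compared groups, other controls and leaving out each library. No 2 replicate libraries agreed within sampling noise. The labels do not say whether replicate numbers pair the samples, and the main tests did not pair them. No gene whose highest count is below 6 is listed in a table. Library wt_438, whose labels conflict, entered no comparison, and 2 wild types set beside +/C313Y are titled C313T and were kept by their genotype label.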

Additional observations from a re-analysis of the deposited data

Results flagged for a closer look

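Single values standing far from the rest of their group were looked for in 193 sets. A set was 1 named gene, or the member sum, in 1 group of 4 to 10 libraries. Chance alone gives such a value in about 1 in 20 sets, which is more than were found. They stood in 7 genes and in the member sum of 1 group. In B6 Aire+/- these were Klk1b4 at 29.2 CPM (nearest library 22.9), Prss28 at 11.5 CPM (nearest 5.13) and Tmprss13 at 14 CPM (nearest 10.03). In the NOD wild types set beside +/C313Y they were Klk1b16 at 27.1 CPM (nearest 7.71) and Prss56 at 10.6 CPM (nearest 6.16). Klk1 stood at 97.1 CPM in 1 C442G/C442G library (nearest 72.5) and Prss30 at 47.5 CPM in 1 +/C442G library (nearest 31.0). The summed CPM of the members reached 1004 in 1 C442G/C442G library.

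Differences between effects that passed the joint test numbered 34, all in log2 units. Against the null homozygous effect on B6, the Y86C effect was lower for Klk1 (-1.42), Klk1b24 (-3.83), Klk1b9 (-1.44) and Prss8 (-1.0). The C313X effect was lower for Klk1 (-1.60), Klk1b1 (-1.62), Klk1b27 (-1.39), Prss29 (-6.13), Prss8 (-1.04) and Tmprss7 (-3.07); Prss29 had 0 counts in C313X/C313X, so its value depends on the prior count. The C442G homozygous effect was lower for Klk1 (-1.25), Klk1b27 (-1.11), Prss29 (-2.82), Prss8 (-1.04) and Tmprss2 (-1.32). The +/C442G effect was lower than that of Aire+/- for Klk10 (-1.94), Klk12 (-2.41), Klk14 (-1.62), Klk1b4 (-1.27), Klk4 (-0.93), Klk5 (-1.51), Mcpt1 (-1.64), Prss27 (-2.18), Prss29 (-2.23), Prss34 (-1.83), Prss56 (-2.09), Prss8 (-1.09) and Tmprss7 (-2.35). The -/C313Y effect was higher than that of +/C313Y for Klk1b11 (1.39) and Tmprss2 (1.84). The null effect on NOD was lower than on B6 for Klk1b11 (-1.39), Klk1b27 (-1.84) and Klk1b3 (-3.83) and higher for Prss27 (2.14).

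Of the 34, 10 kept their call whichever single library was left out: Klk12, Klk1b4, Prss27, Prss29, Prss34 and Prss8 in +/C442G, Prss29 in C313X, Tmprss2 in C442G/C442G, and Klk1b3 and Klk1b11 between strains. The other 24 were ended by at least 1 library. For Y86C these were wt_430, wt_432, wt_434, KO_428, KO_429 and KO_436 of the null line, and every Y86C library of the 2 groups. For C313X they were KO_428, KO_429, KO_436, wt_430 and wt_434 of the null line, C313X homozygotes 1 and 10 and wild types 6 and 7. For C442G/C442G they were KO_428, KO_429, KO_431, wt_430, wt_432 and wt_434 of the null line, homozygotes 83 and 90 and wild types 86 and 89. For +/C442G they were wt_430, wt_432, wt_434, het_433, het_437, het_439 and het_440 of the null line, heterozygotes 81, 82, 87 and 91 and wild types 88 and 89. For C313Y they were heterozygotes 73 and 75, -/C313Y libraries 1 and 2, wild types 47 and 52 and all 3 wild types of the -/C313Y series. Between strains they were KO_428, KO_429, KO_436, het_433, het_435, het_439 and het_440 of B6 and all 6 NOD libraries.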

How the results depend on the processing

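No member call reversed direction under any alternative that tested it, and changes of members not called were not compared. Of the 351 member calls, 351 were kept with RLE size factors, 349 without a count filter and 347 without TMM factors. DESeq2 kept 306 of the 316 it gave an adjusted p for, fits of only the compared groups 293 of 296, and the sex term 273 of 302. With all 8 NOD wild types as reference 102 of 108 were kept, without the 2 wild types titled C313T 29 of 31, and leaving out single libraries kept 2506 of 2743. The sex term was added after seeing the data, as were the fits without TMM factors. With it, C313X/C313X had 26 calls in place of 43, C313X against the null 2 in place of 6, Y86C against the null 2 in place of 4, and B6 Aire+/- 1 in place of 0. In +/Y86C, DESeq2 called 0 and the fit without TMM factors 4, in place of 2. In V303M/V303M, DESeq2, no TMM factors and no count filter called 1 each, in place of 0. The cause of these shifts was not tested.

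Leaving out each library gave 0 to 2 calls in +/Y86C, 0 to 1 in B6 Aire+/- (1 without het_440), 0 to 2 in V303M/V303M (2 without homozygote 42), and 0 to 2 for -/C313Y against +/C313Y. It gave 1 to 10 for C313X against the null, 8 to 14 for +/C442G against Aire+/-, 2 to 7 for C442G/C442G against the null, 0 to 4 for Y86C against the null and 2 to 6 between strains. Without library 392, which held transcripts of both sexes, NOD Aire-/- had 32 calls (29 lower, 3 higher) in place of 34, and without wild type 52 +/C313Y had 31, all lower. Same-numbered libraries of -/C313Y and its wild types correlated at 0.073, -0.055 and 0.187, and differently numbered ones at -0.168 to 0.110. With 3 libraries per group these values cannot decide whether the numbers mark a pairing. The fit with the replicate block had 39 calls in place of 43. Of the 43, it kept 37, lost 1 (Klk1b16) and did not test 5, and it called 2 others. Depth limits the 12 untested members and those at 0 counts.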

Other observations

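Library wt_438 of the B6 null line is titled wild type and carries the genotype label Aire -/-, so it was put in no group. Its members summed to 1721 CPM, with a count for 56 of them. It held Klk1 at 201 CPM, Klk1b9 at 114 CPM, Klk1b11 at 105 CPM, Klk4 at 68.1 CPM, Klk5 at 34.3 CPM, Prss29 at 54.6 CPM and Mcpt1 at 19.9 CPM. It also held Tmprss4 at 213 CPM, Tmprss2 at 49.7 CPM and Prss35 at 7.95 CPM.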
